A study of Mus musculus with 179 samples.

Results

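Krt7-high and Krt7-low cells are the cells at the upper and the lower end of Krt7 expression among single cells of mouse pancreatic acinar organoids. A cell was taken as Krt7-high when its Krt7 level was at least 4700 CPM (counts per 1000000 of the cell's unique molecular identifiers), and as Krt7-low when it was under 1900 CPM. The cells were thus chosen by measured Krt7. Only cells with at least 40000 molecules (UMIs) were considered, and 6 fibroblast-rich cells (Acinar5, Acinar6, Acinar44, Acinar105, Acinar182 and Acinar188) were left out. This gave 42 Krt7-high and 35 Krt7-low cells. Of all other cells of the series, 78 lay between the thresholds and are called Krt7-middle here, 18 were too shallow, and 6 were the fibroblast-rich ones.

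Every cell came from the same condition: acinar cells of wild-type C57BL6 mice, cultured for 9 days as organoids in Matrigel, with no genotype, drug or time point set against another. RNA was read with Smart-seq3, a plate method that tags molecules with UMIs, beside DNA methylation and accessibility, which are not analysed here. The labels tie no cell to an animal or culture. All cells are therefore 1 sample, cells do not stand in for replicates, and neither tests nor p-values are given. Intervals are exact 95% intervals that cover counting error only.

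Keratin 7 is an intermediate filament protein of simple epithelia. In the pancreas it marks duct cells, whereas acinar cells, which make digestive enzymes, build their filaments mainly from keratins 8 and 18. Acinar cells kept in gel culture are known to lose enzyme transcripts and to take on duct-like and injury-associated genes, a change called acinar-to-ductal metaplasia.

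Krt7 (chr15:101411043-101430313 in GRCm38, plus strand) itself chose the groups, so its values are only a description. Krt7 CPM ran over 4706, 5805 and 12101 (lowest, median and highest cell) in Krt7-high cells and over 217, 1190 and 1875 in Krt7-low cells. Every cell thus carried Krt7, and the low group held less of it and not none. The pooled level, all UMIs of a group summed, was 6550 CPM (6489 to 6612) in Krt7-high and 1317 CPM (1288 to 1346) in Krt7-low cells. At the upper threshold, Acinar87 (4706 CPM) and Acinar58 (4747) lay just inside and Acinar82 (4693) and Acinar192 (4685) just outside. At the lower threshold, Acinar74 (1875) and Acinar7 (1860) lay just inside and Acinar169 (1953) and Acinar104 (1956) just outside. Levels formed a range with cells on either side of each threshold, so the groups are ends of a range of Krt7. Whether they hold distinct cell types was not tested.

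The groups had similar depth. UMIs per cell ran from 41560 to 305249 in Krt7-high cells (median 148516) and from 47789 to 309269 in Krt7-low cells (median 172219), with medians of 11302 genes detected in Krt7-high and 11915 in Krt7-low cells. The median mitochondrial share of UMIs was 0.934% in Krt7-high and 1.14% in Krt7-low cells, and reads per UMI had medians of 2.03 in Krt7-high and 2.41 in Krt7-low cells. By title number, 24 of 42 Krt7-high cells (57.1%) and 13 of 35 Krt7-low cells (37.1%) were numbered from 97 upwards. The labels do not say what the numbers stand for, so folds within each range of numbers are given for many of the named genes. Of the named genes past 2-fold, 75 of 79 also passed within numbers up to 96 (18 Krt7-high and 22 Krt7-low cells) and 39 of 77 from 97 (24 Krt7-high and 13 Krt7-low cells), where 2 turned round (Gdf15 and Fn1) and 36 no longer passed. A few cells stood apart within their group: Acinar155 was the Krt7-high cell richest in digestive enzyme transcripts, and Acinar52 and Acinar98 were the richest Krt7-low cells.

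Of 10336 genes with at least 10 CPM over both groups, 460 (4.45%) differed by at least 2-fold: 1.47% were higher in Krt7-high cells and 2.98%, or 308 genes, were lower. To be counted, a gene had to pass 2-fold in the same direction both for the pooled level and for the median cell with 5 CPM added. Some calls near the limit still rested on 1 cell. This is given beside some of those genes. For Cxcl5, Fn1, Wnt4, Ccn1, Bbc3, Cnn3, Jag2, Phgdh and Sc5d it is given with the dependence on processing near the end. The median fold over all tested genes was 0.941. The shares of 1.47% and 2.98% are the background for every count of called list members below, and a short list with none called lies near them. Scaling by TMM or DESeq2 size factors, which centre on the bulk of the genes, raised all Krt7-high levels by 0.15 or 0.18 on the log2 scale. The higher genes, 33.04% of those called, then became 223 against 247 lower with TMM (47.5%) and 237 against 239 with DESeq2 (49.8%), so the excess of lower genes depended on the scaling. In the plot of pooled levels most genes lie close to the line of equal level, and called genes occur over the whole range of levels.

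**Figure D1:**
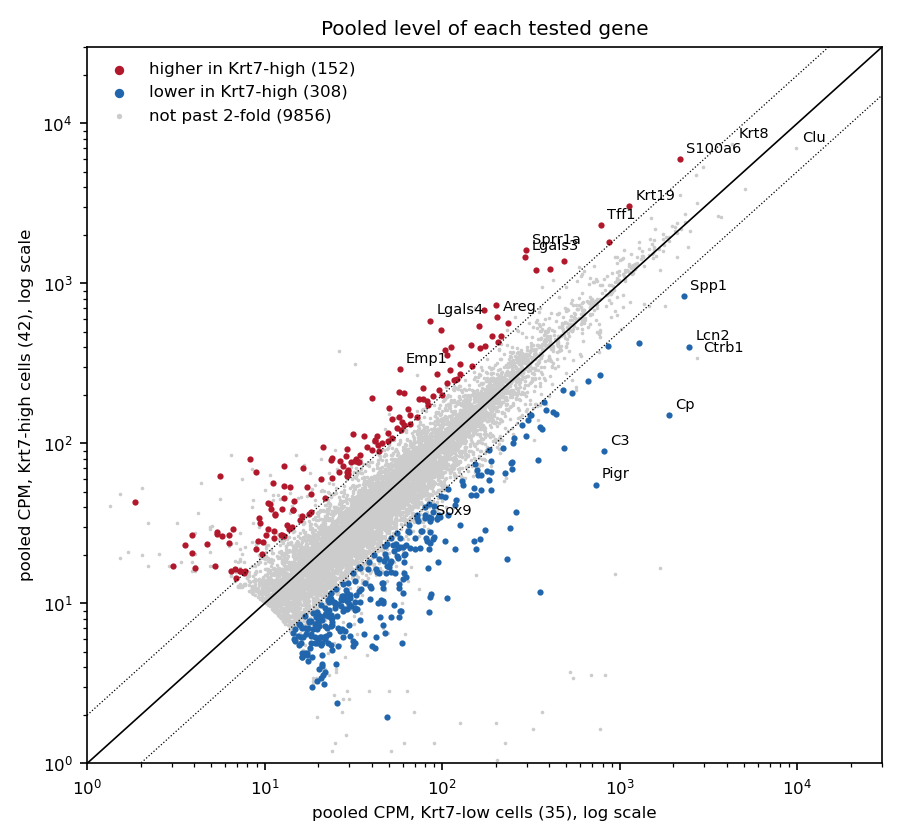
Pooled CPM of each tested gene in the 42 Krt7-high cells (vertical, log scale) and the 35 Krt7-low cells (horizontal, log scale). The solid line marks equal levels, the dotted lines 2-fold; red points are the genes higher and blue points the 308 genes lower in Krt7-high cells, and grey points passed neither way. Not drawn are 20 genes with under 1 CPM in a group, none of them called.

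Duct genes did not move as a block with Krt7. Of the duct programme without Krt7, 22 of 24 genes were tested, of which 1 was higher (Krt19) and 3 were lower (Spp1, Sox9 and Prom1) in Krt7-high cells. Over all tested genes 1.47% were higher and 2.98% lower. The median fold of the 22 duct genes was 0.788, against 0.941 for all tested genes. The summed level of the programme per cell ran over 4223, 11297 and 20159 CPM in Krt7-high cells (lowest, median, highest) and 2558, 12396 and 21160 CPM in Krt7-low cells. The groups overlapped almost fully, and the lower median of Krt7-high cells turned into a slightly higher one under TMM and DESeq2 scaling (ratio of medians 0.911, against 1.01 and 1.03).

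Krt19, the type I keratin that pairs with keratin 7 in duct cells (chr11:100140810-100148665 in GRCm38, minus strand), was the duct gene that went with Krt7. Its CPM ran over 815, 2659 and 5376 in Krt7-high cells and 319, 798 and 3767 in Krt7-low cells. All 42 Krt7-high cells lay above the Krt7-low median, while 3 of 35 Krt7-low cells lay above the Krt7-high median. The pooled fold was 2.70 (2.63 to 2.78), and it was 2.93 within title numbers up to 96 and 2.31 from 97.

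The other broadly expressed simple keratins were higher too but did not pass 2-fold. Krt8 ran over 3352, 7414 and 12296 CPM in Krt7-high cells and 1702, 3966 and 8259 CPM in Krt7-low cells, a pooled fold of 1.73. Krt18, its partner, ran over 1986, 3323 and 6343 CPM in Krt7-high cells and 858, 2063 and 3871 CPM in Krt7-low cells, a pooled fold of 1.64. For each of these keratins 41 of 42 Krt7-high cells exceeded the Krt7-low median. Krt20, a keratin of gut and gastric surface epithelium, stood at medians of 59.3 CPM in Krt7-high and 11.7 CPM in Krt7-low cells, with a pooled fold of 4.77 (8.13 up to title number 96, and 2.06 from 97, where it no longer passed for the median cell). The Krt20 fold was 3.96 without Acinar89 and 7.07 without Acinar68, and a single Krt7-high cell held over 20% of that group's Krt20 UMIs. All 6 tested simple keratins had a fold above 1 (median 1.68), and 2 of them (Krt19 and Krt20) passed 2-fold.

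The duct genes that ran the other way were a secreted protein, a transcription factor and a surface protein. Spp1 (chr5:104435118-104441050), which encodes the phosphoprotein osteopontin, ran over 13.1, 789 and 3459 CPM in Krt7-high cells and 41.9, 1718 and 10550 CPM in Krt7-low cells. Sox9 (chr11:112782224-112787760), a factor of duct and progenitor cells, ran over 0, 24.7 and 313 CPM in Krt7-high cells and 0, 62.1 and 278 CPM in Krt7-low cells. Prom1, which encodes the surface protein CD133, ran over 29.5, 187.8 and 611 CPM in Krt7-high cells and 21.3, 448 and 1203 CPM in Krt7-low cells. All 3 overlapped between the groups, with 5, 6 and 3 of 42 Krt7-high cells above the Krt7-low median. Pooled folds were 0.363 (0.352 to 0.374) for Spp1, 0.385 (0.327 to 0.452) for Sox9 and 0.450 (0.422 to 0.479) for Prom1. Sox9 fell outside the 2-fold limit from title number 97 (0.599, against 0.293 up to 96). There Spp1 (0.418) and Prom1 (0.529) no longer passed either, and Spp1 did not pass under TMM or DESeq2 scaling, nor Prom1 under DESeq2. Sox9 also did not pass with equal weight per cell, and neither Sox9 nor Prom1 did when cells were thinned to 40000 UMIs. Prom1 did not pass among cells with under 1000 CPM of the G2/M cell division genes. Spp1 did not pass with Krt7 thresholds of 4200 and 2200 CPM. The pooled Sox9 level of Krt7-middle cells, 102.9 CPM, lay above that of both ends (32.7 in Krt7-high and 84.9 in Krt7-low cells).

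Some other duct genes had close to equal levels. Onecut2, a duct and liver transcription factor, had medians of 846 CPM in Krt7-high and 808 CPM in Krt7-low cells (fold 0.973). The protease inhibitor precursor Ambp had medians of 796 CPM in Krt7-high and 900 CPM in Krt7-low cells (0.980). The mucin Muc1 (fold 0.975) and the carbonic anhydrase Car2 (1.08) were as close. The tetraspanin Tspan8 (fold 1.52) and the claudin Cldn4 (0.627) lay further apart without passing. Ehf, an epithelial ETS factor, lay just outside the rule, with medians of 222 CPM in Krt7-high and 423 CPM in Krt7-low cells and a fold of 0.497. Genes of duct ion and water transport held none that passed in either direction among 16 tested (median fold 0.946), with a median level of 3258 CPM in Krt7-high and 3882 CPM in Krt7-low cells. Epithelial junction genes likewise held none among 26 (median fold 0.959), with medians of 5652 CPM in Krt7-high and 6088 CPM in Krt7-low cells. Over all tested genes 4.45% passed in either direction, so none in lists this short is near that share. Under TMM and DESeq2 scaling the junction list lay slightly above 1 in place of below it (1.03 and 1.05, against 0.928).

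**Figure D2:**
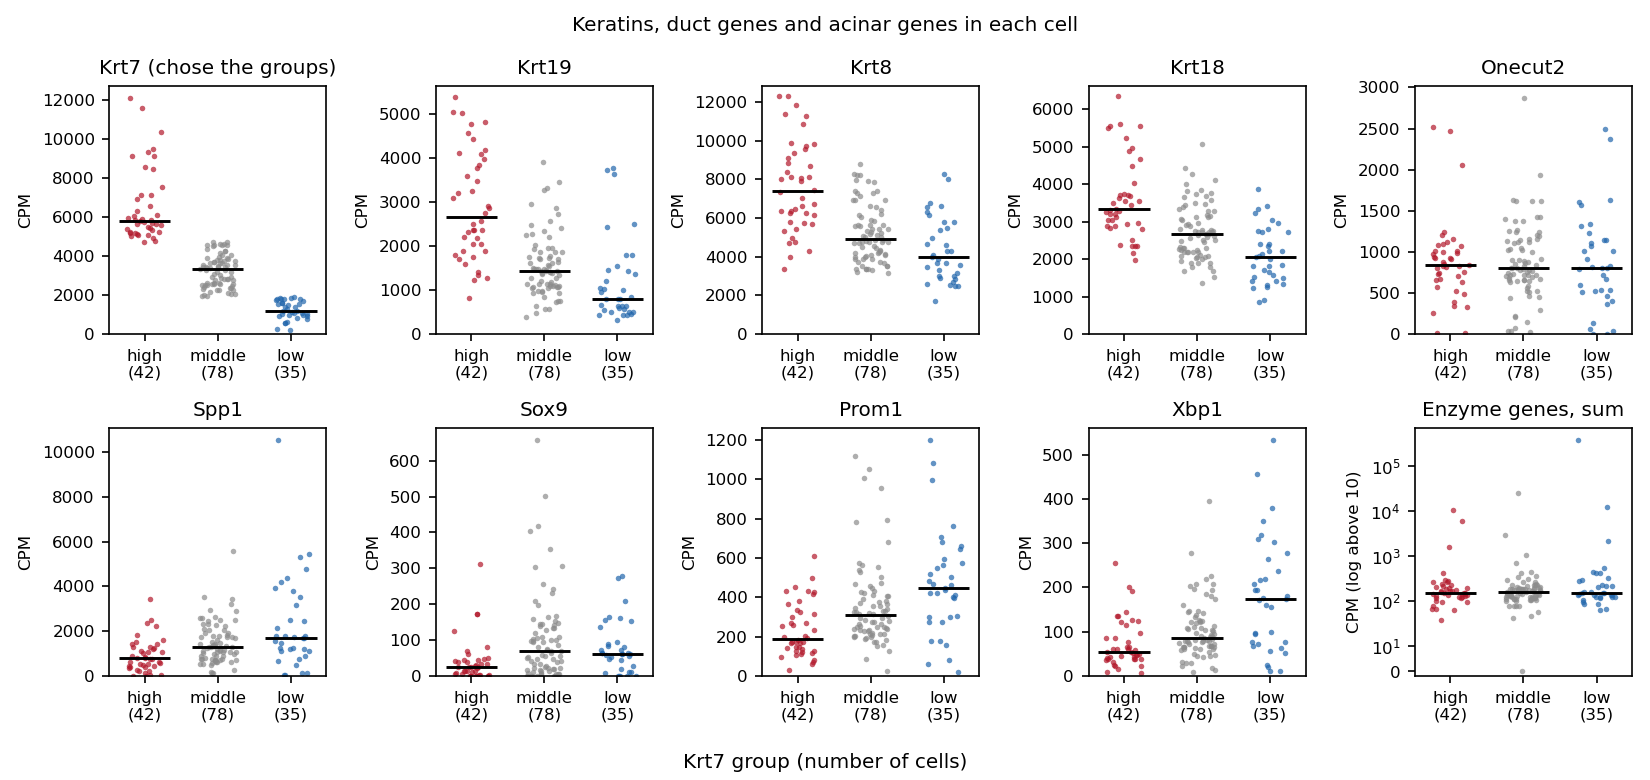
CPM per cell of 9 genes and of the summed enzyme genes (all listed acinar enzymes without Ctsl and Dmbt1), each dot a cell and each bar the group's median; groups run from Krt7-high (42 cells) over Krt7-middle (78) to Krt7-low (35). The enzyme panel has a logarithmic axis above 10 CPM. Krt19, Krt8 and Krt18 step down with Krt7, Spp1, Prom1 and Xbp1 step up, Sox9 is highest in pooled level in the middle group, and Onecut2 and the enzymes have near-equal medians.

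Acinar enzyme transcripts were equally low in the typical cell of either group. Of 39 enzyme and secretory genes 26 were tested and none passed in either direction. Most of the 26 had a median of 0 CPM in both groups, where the rule for the median cell can make no call. For them the outcome was fixed by the rule. The pooled folds were below 1 for all 26 genes (median 0.00670). Acinar52 held most of the Krt7-low UMIs of the list without Ctsl and Dmbt1, but it did not set every fold. The folds of Ctsl (0.931) and Dmbt1 (0.403) were moved most by leaving out other cells. Zg16 stood at 9082 CPM in Acinar98 and at 484 CPM in Acinar52. Ctrb1, which encodes chymotrypsinogen, ran over 18.6, 87.97 and 9670 CPM in Krt7-high cells and 35.5, 82.9 and 85203 CPM in Krt7-low cells. The medians were alike and the highest cells far apart, since Acinar52 held 94.9% of the Krt7-low UMIs of this gene. Its pooled fold was 0.125 with Acinar52, 2.40 without it, and 0.0500 without Acinar155. Prss2, a trypsinogen gene, had medians of 9.60 CPM in Krt7-high and 14.96 CPM in Krt7-low cells, and its pooled fold of 0.00996 became 1.07 without Acinar52.

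Most of the list's level in the typical cell came from Ctsl, a lysosomal protease, and Dmbt1, a mucosal scavenger receptor, which other cell types also express. With them the list had medians of 1895 CPM in Krt7-high and 2689 CPM in Krt7-low cells. Without them the other 37 genes had medians of 149.7 CPM in Krt7-high, 154.7 CPM in Krt7-middle and 152.1 CPM in Krt7-low cells. Pooled, these 37 genes stood at 594 CPM in Krt7-high and 11848 CPM in Krt7-low cells, and at 344 CPM in Krt7-low cells without Acinar52, which held 97.2% of that group's enzyme UMIs. Acinar155 stood at 10374 CPM and Acinar22 at 6037 CPM among Krt7-high cells, while Acinar98 stood at 12200 CPM, mostly the granule lectin Zg16 (9082 CPM), among Krt7-low cells. Enzyme-rich cells thus lay at both ends, and another (Acinar55, 24239 CPM) lay between.

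Among transcription factors of acinar cells, 1 of 6 tested passed, with a median fold of 0.810. Xbp1, which drives secretory capacity and the unfolded protein response, ran over 7.11, 54.5 and 256 CPM in Krt7-high cells and 10.7, 173.02 and 534 CPM in Krt7-low cells. Only 3 of 42 Krt7-high cells lay above the Krt7-low median, and the pooled fold was 0.349 (0.311 to 0.389). From title number 97 its pooled fold was 0.465 and it no longer passed for the median cell. Nr5a2, a nuclear receptor of acinar and other gut cells, stood at medians of 17.7 CPM in Krt7-high and 36.01 CPM in Krt7-low cells, with a pooled fold of 0.477 and narrowly missed the rule for the median cell. Ptf1a, the master factor of acinar identity, had 0 UMIs in Krt7-high cells, where 3 UMIs would stand at 0.448 CPM. Its UMIs in Krt7-low cells all came from Acinar52. Gata6 was near equal, with medians of 51.02 CPM in Krt7-high and 42.03 CPM in Krt7-low cells.

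The genes at the upper end of the fold order included galectins, a cornified envelope gene and several membrane proteins. The 15 highest folds among called genes of at least 50 CPM, leaving out genes for which 1 cell held over 20% of the UMIs of the higher group, ran from 6.82 (Lgals4) to 3.07 (Tnni2). Galectins, small proteins that bind sugars, led with Lgals4 and Lgals3. Lgals4, a galectin of gut epithelium, ran over 0, 334 and 1861 CPM in Krt7-high cells and 0, 44.3 and 1236 CPM in Krt7-low cells. Its groups overlapped, with 33 of 42 Krt7-high cells above the Krt7-low median. The pooled fold was 6.82 (6.21 to 7.49), and 10.6 without Acinar68, a Krt7-low cell that alone held 37.5% of that group's UMIs. It was 7.24 up to title number 96 and 6.29 from 97. Lgals3 ran over 44.8, 1088 and 6292 CPM in Krt7-high cells and 10.99, 245 and 1338 CPM in Krt7-low cells. The pooled fold was 5.01 (4.76 to 5.28), with 5.27 up to title number 96 and 4.86 from 97, and 40 of 42 Krt7-high cells exceeded the Krt7-low median.

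Sprr1a, a small proline-rich protein of the cornified envelope of stratified epithelium, was the other leading gene. It ran over 13.8, 673 and 9747 CPM in Krt7-high cells and 0, 92.3 and 2511 CPM in Krt7-low cells, a pooled fold of 5.43 (5.16 to 5.71), with 6.40 up to title number 96 and 4.08 from 97. The groups overlapped, and 36 of 42 Krt7-high cells lay above the Krt7-low median. Emp1, an epithelial membrane protein, ran over 25.02, 213 and 1407 CPM in Krt7-high cells and 5.07, 48.4 and 197 CPM in Krt7-low cells. It separated the groups better than the leading genes, with 41 of 42 Krt7-high cells above the Krt7-low median and 0 of 35 Krt7-low cells above the Krt7-high median. Its fold was 5.08 (4.52 to 5.71), with 5.45 up to title number 96 and 4.55 from 97. Of 9 tested squamous and cornified genes 2 passed (Sprr1a and Sfn, an epithelial 14-3-3 protein, fold 2.15), and the median fold was 1.64. Squamous keratins lay in few cells: Krt4 had UMIs in 12 of 42 Krt7-high and 5 of 35 Krt7-low cells, and Krt17 in 2 of 42 Krt7-high and 13 of 35 Krt7-low cells.

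Msln encodes mesothelin, a surface glycoprotein of mesothelium and of pancreatic cancer cells. It ran over 0, 796 and 6170 CPM in Krt7-high cells and 0, 64.9 and 7056 CPM in Krt7-low cells. Its highest cell of all, Acinar162, was a Krt7-low cell with 66.3% of that group's UMIs, so the pooled fold of 3.61 became 10.4 without it. The fold was 17.1 up to title number 96 and 1.05 from 97, where that cell lies, yet 41 of 42 Krt7-high cells exceeded the Krt7-low median. The calcium-binding S100a14 and the membrane raft protein Mal had folds of 3.64 and 3.59. Cav1, the coat protein of caveolae, had a fold of 4.46, the retinoic acid-induced receptor Gprc5a 3.32 and the basement membrane linker Nid1 3.17. Phgr1 (3.96), the troponin gene Tnni2 and the small GTPase relative Arl5c (3.32) were the remaining single genes. From title number 97, Phgr1, Msln, Gm3776, Gprc5a, Nid1 and Tnni2 no longer passed, with pooled folds of 1.05 (Msln) to 2.96 (Nid1). Gsta2 (3.40) and Gm3776 (3.37) are near-identical glutathione transferase copies, whose reads may be shared, so their separate levels are uncertain.

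**Figure D3:**
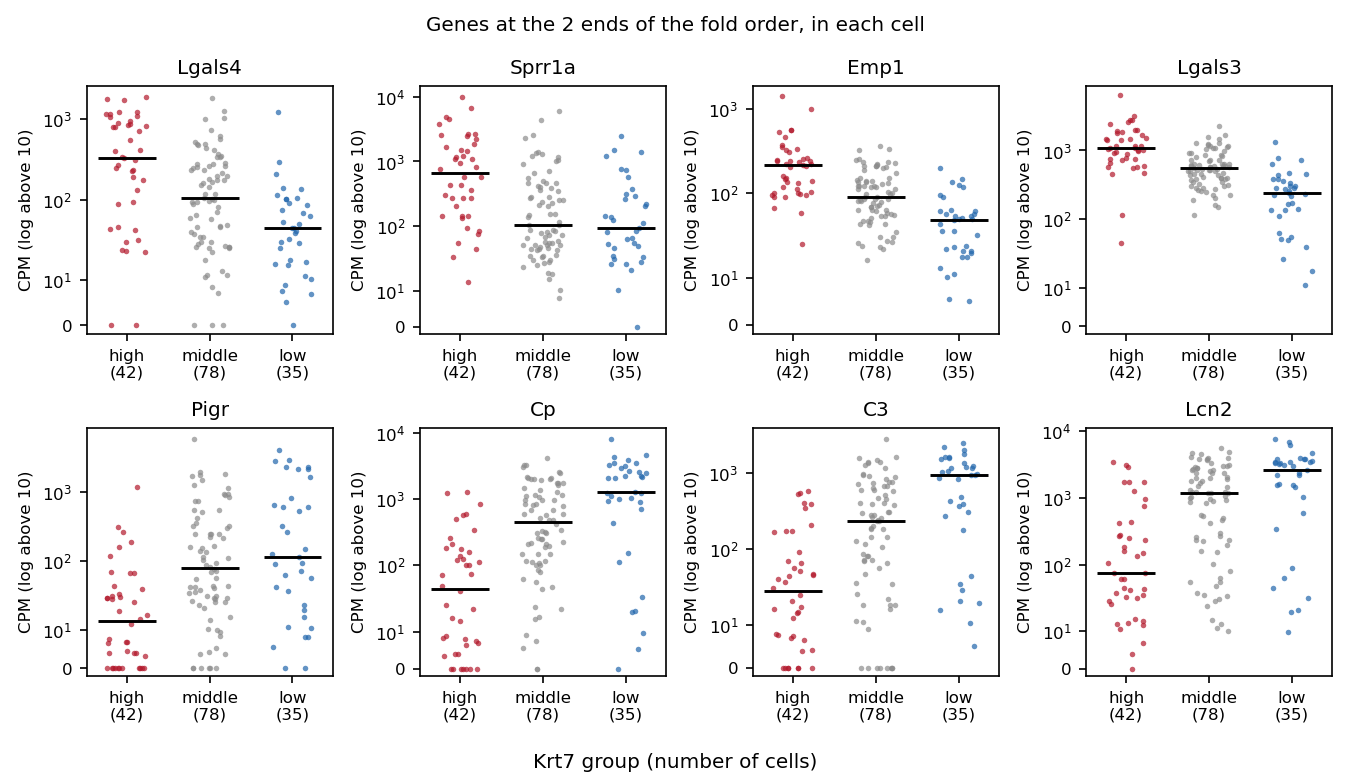
CPM per cell of 4 leading genes of the upper end (Lgals4, Sprr1a, Emp1, Lgals3) and 4 of the lower end (Pigr, Cp, C3, Lcn2), on an axis that is logarithmic above 10 CPM; each dot is a cell, each bar the group's median, and groups run from Krt7-high (42) over Krt7-middle (78) to Krt7-low (35). The medians step down in the upper row and up in the lower row, with the middle cells between, and single cells of either end overlap the other.

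The genes at the lower end included many secreted defence and acute phase proteins. The 15 lowest folds ran from 0.0752 (Pigr) to 0.237 (Slpi), a wider range than at the upper end. Pigr encodes the receptor that carries antibodies across epithelia. It ran over 0, 13.4 and 1172 CPM in Krt7-high cells and 0, 113.3 and 4036 CPM in Krt7-low cells, a pooled level 13.3 times lower in Krt7-high cells, with folds of 0.0566 up to title number 96 and 0.0968 from 97. Its median differed less than its pooled level, since the high cells of the Krt7-low group held most of it. Cp (chr3:19957054-20009145) encodes ceruloplasmin, a copper-carrying plasma protein. It ran over 0, 44.5 and 1286 CPM in Krt7-high cells and 0, 1293 and 7879 CPM in Krt7-low cells, a fold of 0.0797 (0.0746 to 0.0850), with 0.0716 up to title number 96 and 0.110 from 97. None of the 42 Krt7-high cells reached the Krt7-low median, while 29 of 35 Krt7-low cells exceeded the Krt7-high median.

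Complement and iron-binding proteins followed. C3 (chr17:57203970-57228136), the central complement component, ran over 0, 28.1 and 579 CPM in Krt7-high cells and 5.18, 938 and 2471 CPM in Krt7-low cells, a fold of 0.109 (0.100 to 0.119), with 0.0971 up to title number 96 and 0.135 from 97. Lcn2 (chr2:32384633-32388252), which binds bacterial iron carriers, ran over 0, 74.6 and 3447 CPM in Krt7-high cells and 9.76, 2553 and 7406 CPM in Krt7-low cells, a fold of 0.163 (0.157 to 0.170), with 0.122 up to title number 96 and 0.227 from 97. Here 0 (C3) and 3 (Lcn2) of 42 Krt7-high cells lay above the Krt7-low median. Ltf (lactotransferrin, fold 0.124), Lbp (which binds bacterial lipopolysaccharide, 0.193), Lrg1 (an acute phase glycoprotein, 0.0816), the protease inhibitor Slpi and the neutrophil-attracting chemokine Cxcl1 (0.228) were further defence genes. Cxcl1 stood at 0.455 from title number 97 and no longer passed there. Slpi stood at 0.133 without Acinar71, a Krt7-high cell, against 0.237 with all cells. The others were Stox2 (0.142), the focal adhesion protein Tns1 (0.144), the nucleoside carrier Slc28a3 (0.154, and 0.101 without Acinar71), the receptor ligand Gas6 (0.163), the vitamin D carrier Gc (0.185) and the surface protein Plet1 (0.192).

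The chemokine and acute phase list as a whole had 17 genes tested, of which 1 was higher (Il33) and 9 were lower (Cxcl1, Cxcl2, Cxcl5, Nfkbia, Nfkbiz, Icam1, Lcn2, C3 and Cp). Its median fold was 0.411, against 0.941 for all tested genes. Summed per cell, the list ran over 727, 2359 and 10086 CPM in Krt7-high cells and 459, 9544 and 19520 CPM in Krt7-low cells. Only 1 of 42 Krt7-high cells lay above the Krt7-low median. Nfkbia, a target and inhibitor of NF-kappaB, had medians of 101.004 CPM in Krt7-high and 288 CPM in Krt7-low cells, with a fold of 0.335, or 0.541 from title number 97, where it did not pass. Not every member followed: Sod2 had a fold of 1.08, Cx3cl1 1.01, and Il1rn, the interleukin-1 receptor antagonist, 1.81. No gene of the immune cell list reached 10 CPM, and the list's summed median was 0 in Krt7-high and 5.14 CPM in Krt7-low cells.

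**Figure D4:**
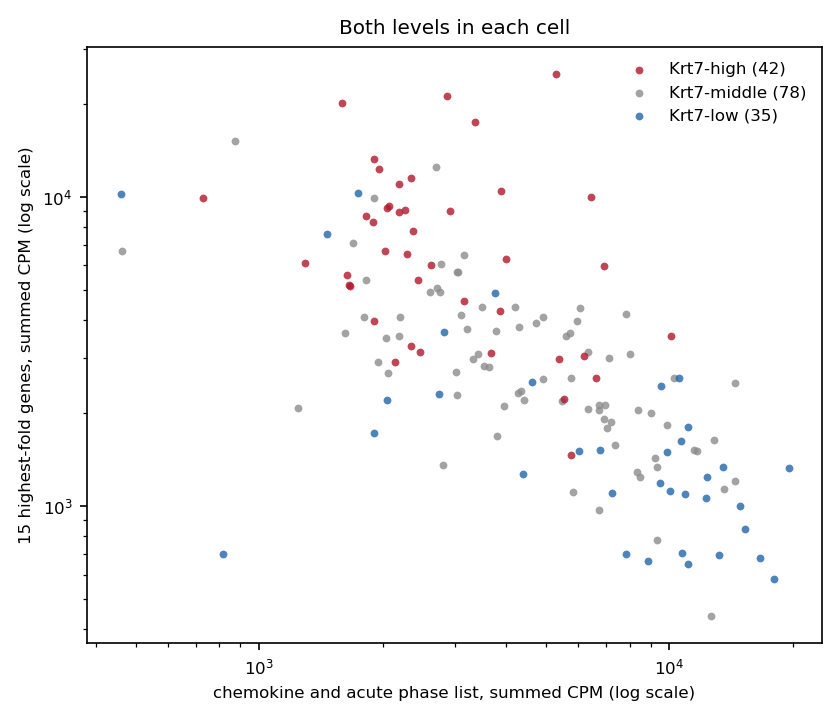
Summed CPM of the 15 highest-fold genes (vertical, log scale) and of the chemokine and acute phase list (horizontal, log scale) in each of the 42 Krt7-high, 78 Krt7-middle and 35 Krt7-low cells. Most Krt7-high cells lie toward the upper left, most Krt7-low cells at the lower right, and middle cells along a band between them. Some Krt7-high cells lie apart, such as Acinar189 (list 10086 CPM, 15 genes 3548 CPM) and Acinar58 (5768 and 1465 CPM). The contrast of the ends chose the 15 genes, so the vertical gap between the ends was set by that choice.

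The Krt7-middle cells, which entered neither group, carried the same order. For 87.5% of the higher genes and 301 of the 308 lower genes (97.7%) their pooled level lay between those of the ends. The shares were 43.7% and 59.3% over all tested genes with a higher or a lower pooled level. Called genes have at least a 2-fold gap between the ends by rule, which leaves more room between. The shares of called and of all tested genes are therefore not like for like. Across the 78 middle cells, Spearman's rho with Krt7 was positive for 90.1% of the higher genes and negative for 281 of the 308 lower genes (91.2%), with 44.2% positive and 55.8% negative over all tested genes. The relations were weak for most genes, with a median rho of 0.16 for the higher and -0.18 for the lower genes. Among the 18 shallow cells left out by the UMI minimum, 4 met the Krt7-high and 4 the Krt7-low threshold. Of the 15 highest genes 14, and of the 15 lowest genes 15, differed there in the same direction in pooled level, as did 70.4% of all higher and 71.4% of all lower genes. Over all tested genes 42.8% were higher in these 4 Krt7-high cells. The share that was lower is not given here, so the agreement of the lower genes has no background beside it. In both comparisons cells share library preparation and a common total, to which all CPM values sum.

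Within the 78 middle cells, which did not choose the genes, Spearman's rho between the summed 15 highest genes and the chemokine and acute phase list was -0.70, a description of cells that share a common total. Within the ends, whose contrast chose the 15 genes, it was -0.31 in 42 Krt7-high and -0.59 in 35 Krt7-low cells. Genes most like Krt7 over the cells of all 3 groups were Lgals3 (rho 0.70), Emp1 (0.68), S100a6 (0.67), S100a14 (0.65) and Mal (0.63). Those most opposed were Cp (-0.58), C3 and Appl2 (-0.56 each), Tmem176b and Gas6 (-0.55 each). In a few Krt7-low cells, such as Acinar98 and Acinar162, the 15 highest genes were nonetheless high: Acinar98 reached 10274 CPM, where the median was 6409 in Krt7-high and 1331 in Krt7-low cells.

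Promoters are shown of Krt7, which chose the cells, and of the 2 highest and 2 lowest genes within the limits of 50 CPM and of 20% of UMIs in 1 cell given above. Each is RefSeq's 250 bases before to 50 after the start in build GRCm38.p6, read 5′ to 3′ on the gene's strand. They lie at chr15:101412153-101412452 (Krt7, plus strand), chr7:28833544-28833843 (Lgals4, plus), chr3:92485832-92486131 (Sprr1a, minus), chr1:130826434-130826733 (Pigr, plus) and chr3:19956804-19957103 (the first of 2 listed for Cp, plus). The Krt7 stretch lies inside the gene span given above, which begins at 101411043. The promoter and gene entries thus place the start of Krt7 differently. Capitals mark matches on either strand to a TATA box (TATAAA), AP-1 (TGANTCA), TEAD (GGAATG) or ETS (AGGAAG) motif, none of which overlap.
Krt7: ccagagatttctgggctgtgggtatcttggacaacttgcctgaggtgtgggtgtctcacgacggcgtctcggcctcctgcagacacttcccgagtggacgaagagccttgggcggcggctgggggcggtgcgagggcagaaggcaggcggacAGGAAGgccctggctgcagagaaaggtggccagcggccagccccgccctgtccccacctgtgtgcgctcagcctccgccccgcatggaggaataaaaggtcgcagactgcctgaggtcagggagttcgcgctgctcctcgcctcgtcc
Lgals4: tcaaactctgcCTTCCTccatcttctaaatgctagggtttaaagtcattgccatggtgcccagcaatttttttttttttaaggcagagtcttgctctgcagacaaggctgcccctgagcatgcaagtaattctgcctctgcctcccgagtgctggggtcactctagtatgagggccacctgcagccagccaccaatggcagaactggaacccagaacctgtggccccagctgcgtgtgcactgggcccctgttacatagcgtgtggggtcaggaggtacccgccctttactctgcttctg
Sprr1a: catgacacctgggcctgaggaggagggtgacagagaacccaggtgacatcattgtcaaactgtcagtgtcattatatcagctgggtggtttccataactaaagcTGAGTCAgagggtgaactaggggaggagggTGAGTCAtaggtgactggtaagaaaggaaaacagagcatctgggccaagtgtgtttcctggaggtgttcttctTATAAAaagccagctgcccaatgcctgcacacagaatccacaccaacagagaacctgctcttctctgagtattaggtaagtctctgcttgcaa
Pigr: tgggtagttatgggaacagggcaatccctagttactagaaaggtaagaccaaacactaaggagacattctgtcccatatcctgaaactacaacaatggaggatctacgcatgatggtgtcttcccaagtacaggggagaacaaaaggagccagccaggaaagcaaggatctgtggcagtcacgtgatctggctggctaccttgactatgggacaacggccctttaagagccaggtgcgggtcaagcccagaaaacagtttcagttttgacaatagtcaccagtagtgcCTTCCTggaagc
Cp: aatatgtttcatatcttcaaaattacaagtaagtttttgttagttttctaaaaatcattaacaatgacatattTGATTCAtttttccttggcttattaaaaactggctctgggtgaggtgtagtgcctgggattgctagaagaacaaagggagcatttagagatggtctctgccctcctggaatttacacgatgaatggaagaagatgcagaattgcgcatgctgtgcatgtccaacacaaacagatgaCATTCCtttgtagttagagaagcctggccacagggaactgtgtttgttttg

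Sprr1a had a TATA box and 2 AP-1 matches, both TGAGTCA, while Lgals4 and Pigr each had 1 ETS match on the opposite strand (CTTCCT) and Krt7 had 1 on its own. Cp had 1 AP-1 match (TGATTCA) and 1 TEAD match on the opposite strand (CATTCC). Of 32851 mouse promoters of this length, 13.6% hold the TATA letters, 7.81% AP-1, 14.7% TEAD and 35.4% ETS. Taking the first listed promoter of a gene, AP-1 letters were in 12.7% of 110 higher genes with an entry, 7.36% of 231 lower genes and 4.77% of 7627 tested genes. TATA letters were in 14.5%, 10.8% and 6.75% of the same sets, TEAD letters in 15.5%, 12.6% and 11.8%, and ETS letters in 34.5%, 39.4% and 32.7%, a description with no test. A match of these letters is not a bound site.

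Injury-associated genes split between the ends. Of 22 tested metaplasia and injury genes, 4 were higher (S100a6, S100a14, Lgals3 and Msln) and 2 lower (Lcn2 and Cp), with a median fold of 1.39, and the summed medians were 30932 CPM in Krt7-high and 27731 CPM in Krt7-low cells. S100a6, a calcium-binding protein, ran over 2473, 5393 and 12332 CPM in Krt7-high cells and 417, 1920 and 6877 CPM in Krt7-low cells, a fold of 2.76 (2.70 to 2.81), with 3.25 up to title number 96 and 2.05 from 97. All 42 Krt7-high cells lay above the Krt7-low median. Anxa2 (fold 1.82) and S100a10 (1.79), which bind each other at the membrane, were higher without passing 2-fold. Clu, a secreted chaperone, had medians of 6414 CPM in Krt7-high and 8939 CPM in Krt7-low cells and a fold of 0.717, and the matrix protease Mmp7 stood at 0.930.

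Of 14 tested gastric surface genes 3 were higher at the Krt7-high end and none was lower. The higher ones were the trefoil peptide Tff1, the annexin Anxa10 and the junction protein Vsig1. The median of the pooled folds was 2.22, a value open to single cells. Summed per cell, the list had medians of 3005 CPM in Krt7-high and 2061 CPM in Krt7-low cells, a ratio of 1.46. Its highest cells were Acinar22 (92158 CPM) in the Krt7-high and Acinar98 (122622 CPM) in the Krt7-low group. Tff1 had medians of 533 CPM in Krt7-high and 186.8 CPM in Krt7-low cells. Its pooled fold of 2.94 was set by single cells: it was 1.69 without Acinar22 (Krt7-high), which ends the call, and 5.66 without Acinar98 (Krt7-low, 47145 CPM). Anxa10 had medians of 236 CPM in Krt7-high and 35.3 CPM in Krt7-low cells and a fold of 5.21, or 3.67 without Acinar22 and 8.33 without Acinar98. A single Krt7-high cell held over 20% of that group's Anxa10 UMIs. Vsig1 had medians of 22.2 CPM in Krt7-high and 0 CPM in Krt7-low cells and a fold of 2.79, or 2.50 without Acinar65 and 4.44 without Acinar68. From title number 97 none of the 3 passed (Tff1 1.03, Anxa10 1.95 and Vsig1 1.86), and with equal weight per cell Tff1 and Vsig1 did not pass. The gastrokines Gkn1 and Gkn2 had medians of 30.4 and 10.3 CPM in Krt7-high cells and 22.97 and 11.8 CPM in Krt7-low cells.

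A share of early response and stress genes was lower in Krt7-high cells. The background for the counts below is 2.98% lower and 1.47% higher over all tested genes. Of 27 tested immediate early genes 6 were lower (Fosb, Jun, Egr1, Ier3, Btg2 and Nr4a1) and none higher (median fold 0.637), with summed medians of 3037 CPM in Krt7-high and 4411 CPM in Krt7-low cells. Ier3, an early gene that tunes cell survival, had medians of 172.4 CPM in Krt7-high and 490 CPM in Krt7-low cells and a fold of 0.367. Jun, a subunit of AP-1, had medians of 115.4 CPM in Krt7-high and 300 CPM in Krt7-low cells and a fold of 0.475. Egr1, an early transcription factor, had medians of 132.07 CPM in Krt7-high and 419 CPM in Krt7-low cells and a fold of 0.482. Both lay so close to the limit that leaving out 1 cell ended the call (Jun 0.504 without Acinar49, Egr1 0.501 without Acinar57). Neither passed under TMM or DESeq2 scaling, and Jun (0.664), Egr1 (0.598) and Nr4a1 (0.562) did not pass from title number 97. Of 18 p53 targets and cell cycle inhibitors 4 were lower (Bbc3, Gdf15, Plk2 and Btg2; median fold 0.652), whereas Cdkn1a had a fold of 1.03. Gdf15, a stress-induced secreted factor, stood at 0.278, or 0.151 without Acinar144, with 0.104 up to title number 96 and 1.03 from 97. Interferon and antigen genes had 3 lower of 14 (Psmb8, Irf1 and Ifitm3; median fold 0.920). Without Acinar71, Ifitm3 stood at 0.111 in place of 0.377 and Psmb8 at 0.161 in place of 0.386. Irf1 stood at 0.400, the class I genes H2-D1 and H2-K1 at 1.08 and 1.06.

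Cell division genes were higher in the typical Krt7-high cell. The S phase list had medians of 2075 CPM in Krt7-high and 484 CPM in Krt7-low cells, with Mcm6 (fold 2.09) and Hells (2.37) past 2-fold among 28 tested and a fold above 1 for all 28 (median 1.53). Mcm6 fell just short, at 1.998, without Acinar30. The G2/M list had medians of 1298 CPM in Krt7-high and 291 CPM in Krt7-low cells, yet pooled levels of 2725 CPM in Krt7-high and 2252 CPM in Krt7-low cells, and none of its 25 genes passed (median fold 1.19). Cells with at least 1000 CPM of the G2/M list numbered 23 of 42 in Krt7-high (54.8%), 43 of 78 in Krt7-middle (55.1%) and 13 of 35 in Krt7-low cells (37.1%), so the middle cells were level with the Krt7-high ones. Mki67, a proliferation marker, had a pooled fold of 0.987. Among the 19 Krt7-high and 22 Krt7-low cells below 1000 CPM, 268 genes were higher and 545 lower, and 76.97% of the higher and 240 of the 308 lower genes (77.9%) were again called.

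Growth factor, adhesion and cytoskeleton genes moved singly. Over all tested genes 1.47% were higher and 2.98% lower, so 1 gene each way in a short list is near those shares. Areg, which encodes the EGF receptor ligand amphiregulin, ran over 0, 542 and 3009 CPM in Krt7-high cells and 0, 54.9 and 1070 CPM in Krt7-low cells. Its fold was 3.03 (2.84 to 3.23), with 2.05 up to title number 96 and 5.75 from 97, and 39 of 42 Krt7-high cells exceeded the Krt7-low median. Nrg1, an ERBB receptor ligand, was lower at 0.350, and the other 8 tested genes of the EGF receptor family passed in neither direction. The laminin chain Lama3 had a fold of 2.20, and 1.81 without Acinar57, which ends the call, and Lamb1 was lower at 0.394. The 19 tested integrin and laminin genes had a median fold of 1.14. In the actin list (median fold 1.33) 1 of 27 was higher (Tpm2, a tropomyosin, 2.74) and 1 lower (Cnn3, 0.485), while Actb (1.77) and Tmsb10 (1.69) were higher without passing. The list's median level was 19461 CPM in Krt7-high and 13650 CPM in Krt7-low cells, with 41 of 42 Krt7-high cells above the Krt7-low median. Among YAP targets 1 of 19 was higher (F3, tissue factor, 2.44, or 1.58 and not past the limit from title number 97) and 1 lower (Ccn1, 0.486), and the summed medians were 1886 CPM in Krt7-high and 1819 CPM in Krt7-low cells although the median fold was 0.802.

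Metabolic genes differed in part. Over all tested genes 4.45% passed 2-fold in either direction, so a short list with none is near that share. Of 26 cholesterol and fatty acid genes 3 were higher (Lss, 2.56, Sc5d, 2.06, and Scd1, 2.10), none was lower, and 25 had a fold above 1 (median 1.69). Summed medians were 4029 CPM in Krt7-high and 2692 CPM in Krt7-low cells. In the NRF2 and glutathione list Gsta1 (2.86, or 1.67 from title number 97) and Gsta2 were higher and Gstm1 (0.289) and Gpx2 (0.421, or 0.662 from 97) lower of 20 (median fold 1.14). Glycolysis genes had none past 2-fold among 23 (median 1.22), with Pkm, a pyruvate kinase, at 1.41 and Gapdh at 1.398. Ribosomal protein genes had none among 85 (median 1.07), with medians of 101896 CPM in Krt7-high and 98615 CPM in Krt7-low cells. Among pancreas development regulators 2 of 17 were lower, Sox9 and Prox1 (0.223), with a median fold of 0.834. Prox1 is a factor of liver, pancreas and lymphatic development. Hnf4a (0.933), Foxa2 (0.970) and Pdx1 (0.834) passed in neither direction.

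**Figure D5:**
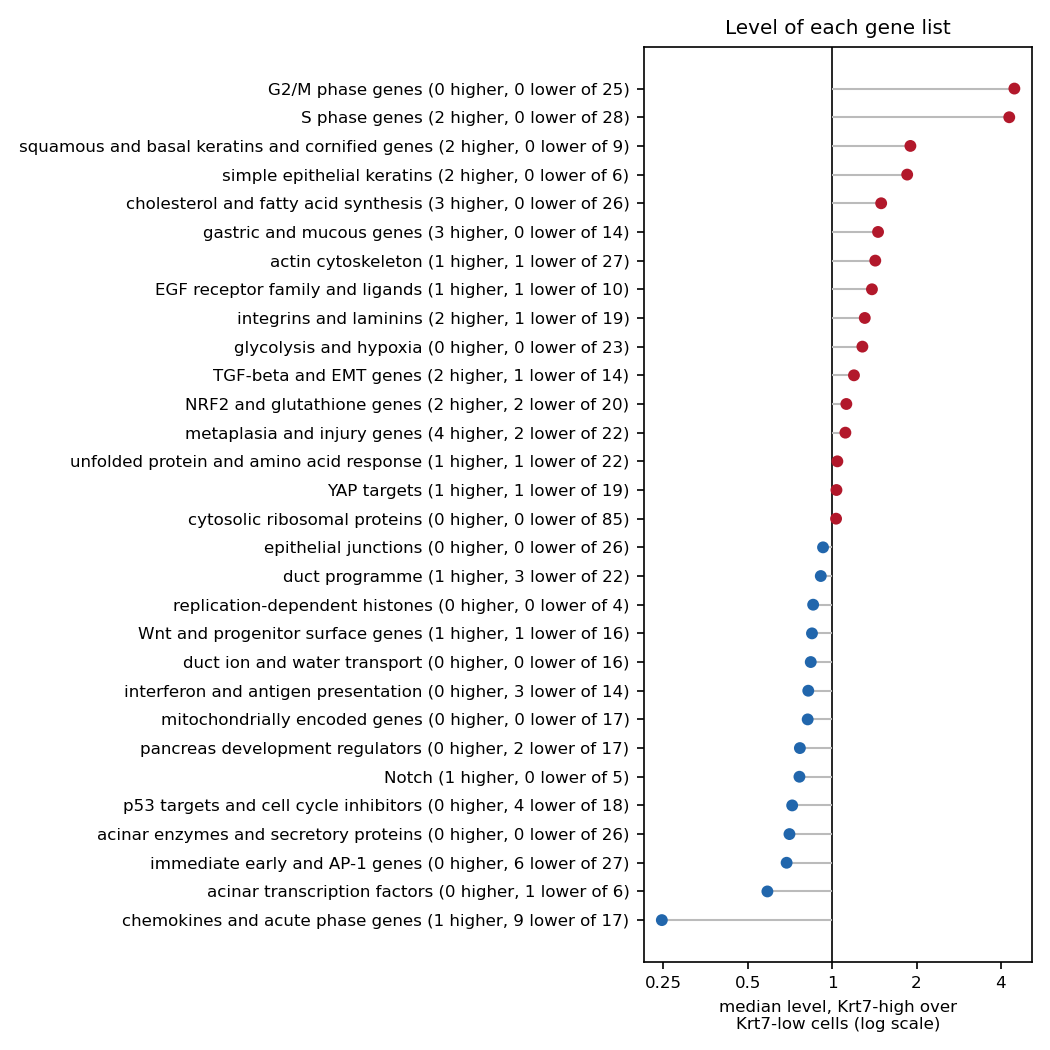
Median summed CPM per cell of each gene list in Krt7-high over Krt7-low cells (horizontal, log scale; the vertical line is equal level), for the 30 lists with at least 3 tested genes. The counts beside each name give how many of the tested genes were past 2-fold; cell division lists stand farthest to the right and the chemokine and acute phase list farthest to the left, and the acinar list includes Ctsl and Dmbt1.

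Genes of other cell types were low in most cells. No gene of the fibroblast and stellate, immune or tuft cell lists reached 10 CPM over both groups. The summed fibroblast and stellate level ran from 0 to 288 CPM in Krt7-high (Acinar108) and from 0 to 42.7 CPM in Krt7-low cells, with a median of 0 in both. The immune level ran from 0 to 259 CPM in Krt7-high (again Acinar108) and from 0 to 49.4 CPM in Krt7-low cells. The tuft cell level ran from 0 to 22.9 CPM in Krt7-high and from 0 to 48.9 CPM in Krt7-low cells. The endocrine level ran from 0 to 275 CPM in Krt7-high and from 0 to 697 CPM in Krt7-low cells (Acinar16), and the endothelial level from 0 to 120.3 CPM in Krt7-high and from 0 to 395 CPM in Krt7-low cells (Acinar162). Endocrine genes were led by Ins2, with medians of 26.5 CPM in Krt7-high and 26.8 CPM in Krt7-low cells, and of the endothelial genes Pecam1 alone was tested (fold 0.730). In Krt7-high cells the defining fibroblast genes Col1a1 and Pdgfrb stood at 1.94 and 3.29 CPM, and in Krt7-low cells at 0.677 and 0 CPM. Mitochondrially encoded genes were lower without passing, with medians of 9336 CPM in Krt7-high and 11407 CPM in Krt7-low cells and a fold below 1 for all 17 tested (median 0.656). This level and the title number range were not tested for their part in the differences above.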

How the data were processed

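Per the labels, RNA of single cells was read with Smart-seq3. The deposited matrix holds whole-number UMI counts per gene and cell made by the authors, and a matching matrix holds read counts. STAR, featureCounts, GRCm38 and mm10 are named in the submitters' processing notes, and their settings are not given in the sources used here. Gene symbols were found for 31985 of 32100 identifiers, and strand use in counting is not stated.

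Counts were scaled to CPM per cell. Pooled levels are summed UMIs with exact Poisson intervals. A gene was tested at 10 CPM or more over both groups with Krt7 left out, and called past 2-fold in both pooled and median-cell level (5 CPM added). The labels give 1 group with no animal or culture, so no significance test was made. No doublet caller was run. The labels give each sample as 1 cell, and whether any sample held more was not tested. The members and all gene lists were chosen with earlier results of these data known.

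Genes were named by rule: the 15 highest and the 15 lowest folds at 50 CPM or more with at most 20% of the higher group's UMIs in 1 cell, up to 6 called and the 3 most abundant members of each list, and 12 duct, acinar and division genes. Genes named outside this rule were chosen after their values were seen; these are other members of the lists given as contrasts. The scripts were tested on simulated data. Alternatives were read counts, equal weight per cell, TMM and DESeq2 scaling, filters, thinning, title number ranges, other Krt7 thresholds, depth limits, cells low in G2/M genes and leaving out single cells. Python 3.11.15, numpy 2.4.6, pandas 2.3.3, scipy 1.17.1, R 4.3.3, edgeR 4.0.16 (TMM factors) and DESeq2 1.42.0 (size factors) were used.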

Additional observations from a re-analysis of the deposited data

How the results depend on the processing

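No paired analysis was possible because the cells form 1 group and the results come from no test. The share of tested genes at least 2-fold higher in Krt7-high cells (1.47%) became 2.29% (237 genes) with DESeq2 size factors, 1.86% (83) with a filter of 50 CPM, 2.51% (259) in title numbers up to 96, 2.47% (253) with Krt7 thresholds of 5500 and 1500 CPM, 0.979% with 4200 and 2200 CPM, 2.65% (268) in cells low in G2/M genes and 5.06% (523) at 1.5-fold. That of lower genes (2.98%) became 2.85% (465 of 16292) with a filter of 1 CPM, 2.04% (91) with 50 CPM, 4.97% (509) with 5500 and 1500 CPM, 5.40% (545) in cells low in G2/M genes and 9.69% (1002) at 1.5-fold. Leaving out each cell in turn gave 1.37% (without Acinar52) to 1.69% (without Acinar162) higher and 2.81% (without Acinar156) to 3.32% (without Acinar52) lower genes. The log2 ratio of duct programme medians (-0.13) became 0.0186 with TMM, 0.0453 with DESeq2, 0.0233 at 100000 UMIs or more and -0.32 in title numbers from 97, and stayed between -0.1352 and -0.0809 leaving out each cell. That of the acinar list (-0.51) became -1.18 in title numbers from 97, -0.79 with 5500 and 1500 CPM, -0.0567 in cells low in G2/M genes and -0.0228 without Ctsl and Dmbt1, and stayed between -0.5745 and -0.4702 leaving out each cell. Leaving out those genes or single cells was chosen after seeing the data. Gdf15 (log2 fold 0.0405) and Fn1 (0.77) turned round in title numbers from 97. Title numbers from 97 kept 39.5% of the higher and 48.7% of the lower genes, and thinning to 40000 UMIs kept 51.3% and 49.4%. Apart from the filters and the fold limit, which set what counts, the cause of these changes was not tested. Leaving out 1 cell ended the call of Cxcl5 (without Acinar121), Fn1 (Acinar16 or Acinar49) and Wnt4 (Acinar89, Acinar136 or Acinar80), and any of 10, 17, 6, 23, 21 and 7 cells that of Ccn1, Bbc3, Cnn3, Jag2, Phgdh and Sc5d. Of the 30 genes at both ends, 7 (Phgr1, Msln, Gm3776, Gprc5a, Nid1, Tnni2 and Cxcl1) did not pass in title numbers from 97, Nid1 did not when thinned, Plet1 did not in cells low in G2/M genes, and none turned round in any setting.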

Other observations

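The genes named here were chosen after their values were seen, and no explanation is offered. These are single genes and not a result about any group they belong to. Cavin1, a coat protein of caveolae, ran over 26.9, 380 and 650 CPM (lowest, median and highest cell) in Krt7-high cells and 0, 159.1 and 393 CPM in Krt7-low cells, a pooled fold of 2.35 (2.19 to 2.53). Of the Krt7-high cells, 39 of 42 lay above the Krt7-low median. Cavin3 had a fold of 5.03 and Cav2 2.27. The S100 gene S100a16 had medians of 499 CPM in Krt7-high and 211 CPM in Krt7-low cells, with a fold of 2.38.

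Trf, the iron carrier transferrin, ran over 0, 0 and 100.8 CPM in Krt7-high cells and 0, 177.8 and 2151 CPM in Krt7-low cells, a pooled fold of 0.0330 (0.0260 to 0.0413). None of the 42 Krt7-high cells reached the Krt7-low median, and Acinar30 held 27.2% of the Krt7-low UMIs. The complement factor Cfi had a fold of 0.0962, the selenium carrier Selenop 0.128 and C-reactive protein Crp 0.170, while Ambp, another plasma protein precursor, was near equal at 0.980. Csf3, a granulocyte growth factor, stood at a pooled 1.94 CPM in Krt7-high and 48.7 CPM in Krt7-low cells.

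Krt87, a keratin gene that lies next to Krt7 on the opposite strand (chr15:101431038-101438804), had medians of 57.2 CPM in Krt7-high and 10.3 CPM in Krt7-low cells and a fold of 2.31 (1.94 to 2.77). Since strand use in counting is not stated, reads past the end of Krt7 and reads of Krt87 cannot be told apart.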
